A study of Rattus norvegicus with 36 samples.

Results

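Microglia are the resident immune cells of the brain, and 3 genes that mark them were followed across the nucleus accumbens of 9 rats. The set was defined by gene ID and not by a cut on measured values, though earlier results of these data were known. Aif1 is ENSRNOG00000000853, Cx3cr1 is ENSRNOG00000018509 and Itgam is ENSRNOG00000019728. All 3 were found among the 31546 gene IDs of the count tables, and all 3 were among the 16029 genes that had enough counts to be tested. The symbols come with the definition of the set, since neither the count tables nor the RefSeq gene table used here pairs any of these IDs with a symbol.

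The rats were Sprague-Dawley animals aged 8 weeks, divided by the labels into 3 Vulnerable, 3 Non Vulnerable and 3 Saline rats. Vulnerable and Non Vulnerable rats are both labelled with 4 cocaine injections, given intraperitoneally at 20 mg/kg in a place preference procedure, in which a drug is paired with one compartment of a box and the time spent there is tested later. Cocaine sessions alternated with saline sessions in the other compartment. Saline rats are labelled with 4 injections of physiological serum and went through the same alternation of compartments. The series title speaks of rats that did or did not express the preference, but no label states which of these the Vulnerable rats are. The labelled tissue is the nucleus accumbens, and the extraction protocol also names the caudate putamen. Each rat has 4 sets of counts, labelled technical replicates a to d and called technical libraries here. They hold 41213813 to 64081679 counts per rat in sum. Rats carry a number of their own in each group, so they are taken as separate animals. Tests between groups weigh a difference against the spread between rats.

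Aif1 encodes a calcium- and actin-binding protein, widely stained under the name Iba1 to show microglia and macrophages. Cx3cr1 encodes the receptor for fractalkine, a chemokine made by neurons, through which neurons signal to microglia. Itgam encodes CD11b, the alpha chain of complement receptor 3, an adhesion and phagocytosis receptor of microglia, macrophages and other myeloid cells. None of the genes is confined to microglia, since macrophages at the borders of the brain and monocytes in its vessels can carry them too. In homogenised tissue, fewer such cells and less RNA per cell cannot be told apart. Markers of other cell types, and of the accumbens itself, could not be looked up, because no other gene ID could be paired with a symbol, so their part in the values below was not tested.

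The RefSeq promoter table of build GRCr8 held 2 of the 3 genes, Itgam and Cx3cr1. Their sequences are shown as a description, and any part of them in the joint variation described further on was not tested. PU.1 is a transcription factor of the ETS family that myeloid cells depend on. The windows, from 250 bases before the annotated start to 50 after it, were searched on both strands for the purine-rich PU.1 box GAGGAA and for GGAAGT, a common ETS-family sequence; these motifs share the bases GGAA. Capitals mark each match. The Itgam window lies at chr1:192089342-192089641 on the plus strand and the Cx3cr1 window at chr8:128677017-128677316 on the minus strand, both printed 5′ to 3′ as the table gives them.
Itgam: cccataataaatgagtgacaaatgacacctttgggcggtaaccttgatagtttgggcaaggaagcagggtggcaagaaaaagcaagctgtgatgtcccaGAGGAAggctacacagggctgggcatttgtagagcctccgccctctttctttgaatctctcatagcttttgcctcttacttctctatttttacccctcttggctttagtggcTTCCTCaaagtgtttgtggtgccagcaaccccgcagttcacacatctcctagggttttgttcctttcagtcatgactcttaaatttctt
Cx3cr1: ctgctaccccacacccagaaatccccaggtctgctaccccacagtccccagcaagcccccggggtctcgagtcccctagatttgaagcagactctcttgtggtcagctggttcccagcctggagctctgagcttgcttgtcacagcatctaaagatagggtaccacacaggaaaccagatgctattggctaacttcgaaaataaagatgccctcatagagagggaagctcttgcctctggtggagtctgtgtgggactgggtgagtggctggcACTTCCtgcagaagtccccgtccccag
In the Itgam window GAGGAA began 151 bases before the start on the gene's own strand, and a match on the opposite strand, written TTCCTC, began 39 bases before it. The Cx3cr1 window held no GAGGAA and 1 GGAAGT on the opposite strand, written ACTTCC, 23 bases past the start. Of all 33469 windows of 300 bases in the table, 27.6% held GAGGAA and 22.6% held GGAAGT on either strand. Matches of this kind are common, and they are given as a description of these windows and not as sites of binding. The motifs were chosen after the sequences had been seen.

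Levels are given as CPM, a gene's count relative to the size of its library after TMM scaling between rats, and they are compared between rats for 1 gene at a time, since CPM takes no account of gene length. For all 3 genes the Vulnerable group had the lowest mean and the Non Vulnerable group the highest, and no difference between groups passed the test over all genes in edgeR. The largest difference was that of Aif1 between Vulnerable and Non Vulnerable rats, at an adjusted p just above the threshold of 0.05.

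**Figure D1:**
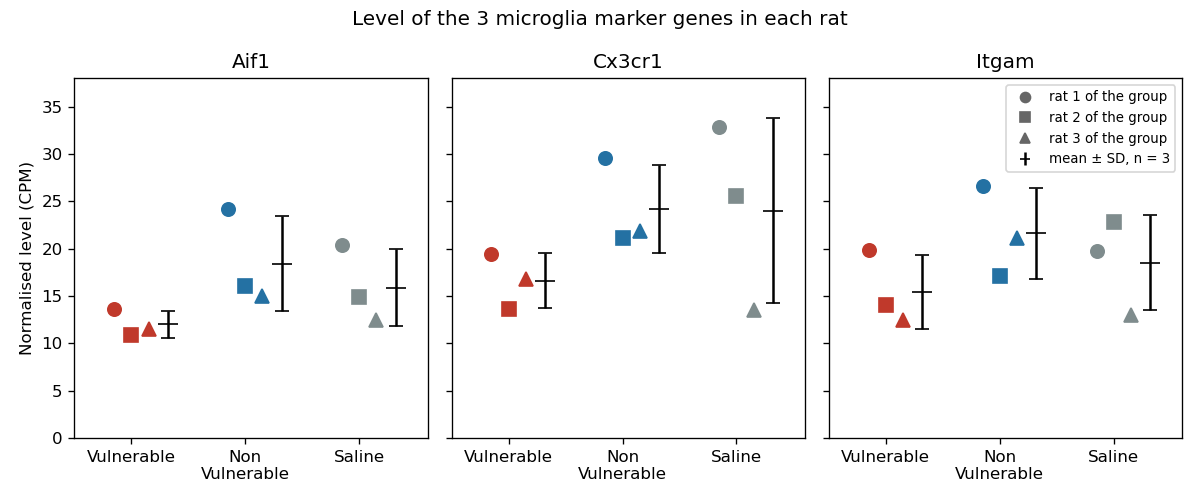
Normalised level (CPM, vertical axis) of Aif1, Cx3cr1 and Itgam in each of 9 rats, by group, with group mean ± SD (n = 3) in black. All 3 Vulnerable rats lie below all 3 Non Vulnerable rats for Aif1 and Cx3cr1, and Saline rats spread widely, from 13.5 to 32.9 CPM for Cx3cr1.

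Aif1 stood at 13.6, 10.8 and 11.6 CPM in Vulnerable rats 1 to 3 and at 24.2, 16.1 and 15 CPM in Non Vulnerable rats 1 to 3. In Saline rats 1 to 3 it stood at 20.4, 14.9 and 12.4 CPM. Every Vulnerable rat was below every Non Vulnerable rat, and Saline rat 3 lay within the range of the Vulnerable rats. The means were 12 ± 1.45 CPM in Vulnerable, 18.4 ± 4.99 CPM in Non Vulnerable and 15.9 ± 4.06 CPM in Saline rats (SD, n = 3). Non Vulnerable rat 1 was the highest of all 9 rats and Vulnerable rat 2 the lowest, 2.23-fold apart.

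Cx3cr1 stood at 19.4, 13.6 and 16.8 CPM in Vulnerable rats 1 to 3 and at 29.6, 21.1 and 21.9 CPM in Non Vulnerable rats 1 to 3. In Saline rats 1 to 3 it stood at 32.9, 25.6 and 13.5 CPM, so Saline rats included both the highest and the lowest of all 9 rats, 2.43-fold apart. Vulnerable and Non Vulnerable rats again did not overlap. The means were 16.6 ± 2.9 CPM in Vulnerable, 24.2 ± 4.69 CPM in Non Vulnerable and 24 ± 9.78 CPM in Saline rats (SD, n = 3). The Saline and Non Vulnerable means thus differed by far less than the spread within either group.

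Itgam stood at 19.9, 14 and 12.5 CPM in Vulnerable rats 1 to 3 and at 26.7, 17.1 and 21.1 CPM in Non Vulnerable rats 1 to 3. In Saline rats 1 to 3 it stood at 19.7, 22.9 and 13 CPM. Here the groups overlapped in every comparison: Vulnerable rat 1 was above Non Vulnerable rat 2 and above 2 of the Saline rats, and Saline rats 1 and 2 were above Non Vulnerable rat 2. The means were 15.5 ± 3.88 CPM in Vulnerable, 21.6 ± 4.78 CPM in Non Vulnerable and 18.5 ± 5.04 CPM in Saline rats (SD, n = 3). Non Vulnerable rat 1 was the highest and Vulnerable rat 3 the lowest, 2.14-fold apart.

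The spread within groups was far above counting error. The 3 genes had 552 to 1662 counts per rat, and the counting error averaged 3.07% to 3.87% of the level in a group, while the SD between rats of a group was 12.1% to 40.7% of the mean. The smallest of these spreads was that of Aif1 in Vulnerable rats and the largest that of Cx3cr1 in Saline rats. Between the 4 technical libraries of a rat, which had 123 to 426 counts per gene, none of 27 chi-square tests (3 genes in 9 rats) gave a p under 0.05, and the smallest p was 0.172. No spread between technical replicates of 1 rat was thus detected beyond counting error. Whether library preparation was repeated for them is not known here, so this may not cover the noise of that step.

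The 3 genes also varied more between rats than most genes of like level. The biological coefficient of variation that edgeR fitted within groups was 19.9% for Aif1, 25.2% for Cx3cr1 and 22% for Itgam. Its median was 13.8% over all 16029 genes tested and 11.4% over the 5348 genes with mean levels from 0.5 times the lowest to 2 times the highest of the 3 genes. Of those 5348 genes, 11.7%, 5.55% and 8.77% had a higher value than Aif1, Cx3cr1 and Itgam. This spread sets how large a difference could be detected with 3 rats a group.

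Vulnerable and Non Vulnerable rats received the same cocaine schedule, and their comparison asks what differed between them in the accumbens. The level of Aif1 in Vulnerable rats was 0.651 times that in Non Vulnerable rats, a log2 fold change of -0.62 with SE 0.224 and a 95% interval of -1.12 to -0.11. Its unadjusted p was 0.0221 and its adjusted p, by Benjamini-Hochberg over all genes in edgeR's quasi-likelihood test, was 0.0627, so it was not called. In DESeq2 the log2 fold change of Aif1 was -0.59 with an adjusted p of 0.0381, under the threshold. The call of Aif1 therefore turned on the method, while the size of the difference hardly moved.

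Cx3cr1 in Vulnerable rats was at 0.686 times the Non Vulnerable level, a log2 fold change of -0.54 with SE 0.291 and a 95% interval of -1.20 to 0.12 (edgeR adjusted p = 0.178). Itgam was at 0.714 times that level, a log2 fold change of -0.49 with SE 0.251 and a 95% interval of -1.05 to 0.08 (edgeR adjusted p = 0.164). In DESeq2 neither was called, with adjusted p of 0.159 for Cx3cr1 and 0.153 for Itgam. The intervals reach from about no difference to a Vulnerable level less than 0.5 times the Non Vulnerable level, so these 3 rats a group leave the size of the difference wide.

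These values stand against a background in which many genes differed. At an adjusted p under 0.05, edgeR called 0 of the 3 genes against 31.5% of all genes tested, and DESeq2 called 1 of 3 against 37.8%. At an unadjusted p under 0.05, 1 of the 3 genes passed in edgeR against 45.3% of all genes. Groups did not overlap, with the Vulnerable rats lower, for 2 of the 3 genes and for 24.9% of all genes. That share counts only the direction these genes showed, so it is smaller than a share counted in either direction, which was not computed here. Genes called by edgeR were split between the directions, 2631 lower and 2419 higher in Vulnerable rats. The median log2 fold change of the 3 genes was -0.54, beside -0.04 over all genes, and 21.5%, 26.2% and 30.9% of all genes had a larger absolute fold change than Aif1, Cx3cr1 and Itgam, while 35.2%, 53.8% and 52.1% had a smaller p. An exact two-sided permutation test of the group means on 3 rats against 3 cannot go below p = 0.1, which was its value for Aif1 and for Cx3cr1, and it gave 0.2 for Itgam.

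**Figure D2:**
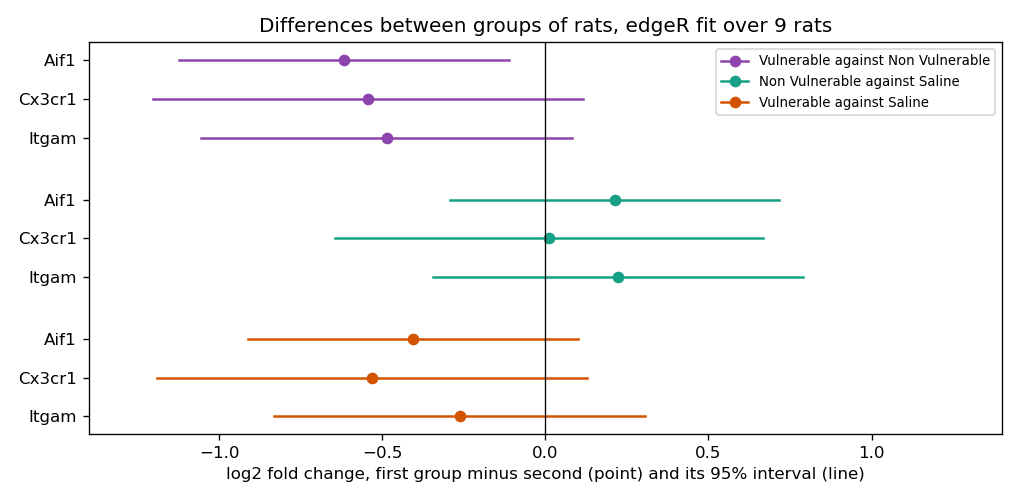
Log2 fold change (points, horizontal axis) and 95% interval (lines) of Aif1, Cx3cr1 and Itgam in the 3 comparisons of groups, from the edgeR fit over 9 rats. The interval of Aif1 for Vulnerable against Non Vulnerable rats, -1.12 to -0.11, is the only one of the 9 that does not include 0, before adjustment over all genes.

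The size of these differences depended most on Non Vulnerable rat 1. Without it the log2 fold change of Vulnerable against Non Vulnerable rats was -0.36 for Aif1 (edgeR adjusted p = 0.187), -0.35 for Cx3cr1 (edgeR adjusted p = 0.404) and -0.29 for Itgam (edgeR adjusted p = 0.412). Without Vulnerable rat 3 that of Itgam was -0.31 (edgeR adjusted p = 0.441). Non Vulnerable rat 1 also stood apart in its library: its 10 most counted genes took 18.2% of the counts, against 10.5% to 13.3% in the other 8 rats, and its TMM factor of 0.901 was the lowest. In a principal component analysis of all genes, it scored -7.51 on the first axis (40.2% of the variance), against -46.9 and -58.5 for the other Non Vulnerable rats and 7.3 to 10 for Saline rats. The part of these features in the levels of the 3 genes was not tested. All 3 genes kept a lower level in Vulnerable than in Non Vulnerable rats in each of the 21 other settings tried, with log2 fold changes of -0.74 to -0.36 for Aif1, -0.63 to -0.35 for Cx3cr1 and -0.66 to -0.29 for Itgam. All settings reuse the same rats. For Aif1 and Cx3cr1 these groups did not overlap, so leaving out 1 rat could hardly turn the sign. The kept direction is thus not separate evidence of a difference.

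**Figure D3:**
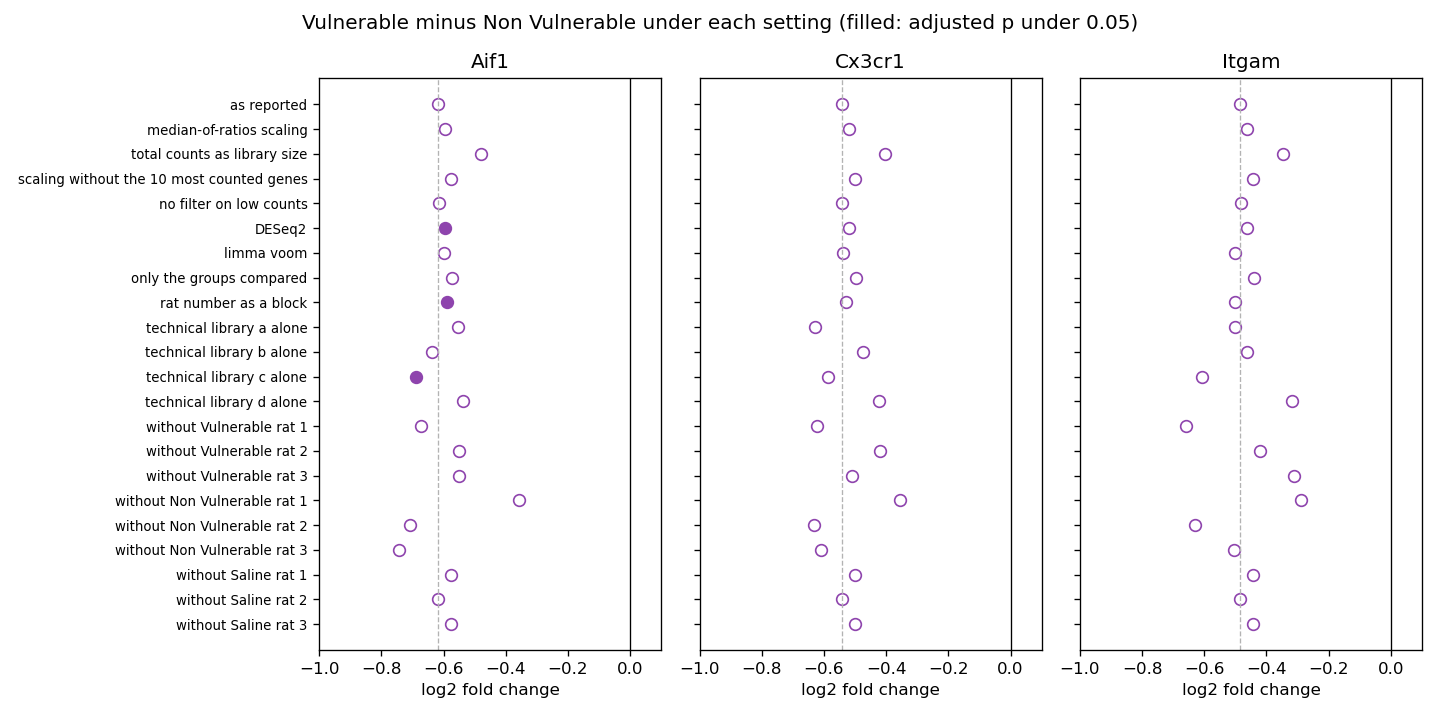
Log2 fold change of Vulnerable minus Non Vulnerable rats (horizontal axis) for each gene as reported and under 21 other settings (rows); filled points have an adjusted p under 0.05 and the dashed line marks the value as reported. All points lie below 0, and the 3 filled ones all belong to Aif1.

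Non Vulnerable rats were compared with Saline rats, which had no cocaine. Only the cocaine rats were sorted by phenotype, so what the drug did and what the sorting selected cannot be told apart here. Aif1 was at 1.16 times the Saline level, a log2 fold change of 0.21 with SE 0.223 and a 95% interval of -0.29 to 0.72 (edgeR adjusted p = 0.546). Cx3cr1 was at 1.01 times it, a log2 fold change of 0.01 with SE 0.29 and a 95% interval of -0.65 to 0.67 (edgeR adjusted p = 0.984). Itgam was at 1.17 times it, a log2 fold change of 0.22 with SE 0.251 and a 95% interval of -0.34 to 0.79 (edgeR adjusted p = 0.577).

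None of the 3 genes was called in Non Vulnerable against Saline rats, where edgeR called 14.7% of all genes and DESeq2 23.4%. None had an unadjusted p under 0.05 in edgeR, against 32.7% of all genes. Their groups overlapped for all 3, while groups did not overlap in either direction for 35% of all genes. The median log2 fold change of the 3 was 0.21, beside 0.02 over all genes. The sign was not settled for Cx3cr1, whose log2 fold change ran from -0.29 without Saline rat 3 to 0.26 without Saline rat 1. For Aif1 it was -0.05 without Non Vulnerable rat 1.

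Vulnerable rats were also compared with Saline rats, under the same limit on what the comparison separates. Aif1 was at 0.755 times the Saline level, a log2 fold change of -0.41 with SE 0.223 and a 95% interval of -0.91 to 0.10 (edgeR adjusted p = 0.897). Cx3cr1 was at 0.692 times it, a log2 fold change of -0.53 with SE 0.291 and a 95% interval of -1.19 to 0.13 (edgeR adjusted p = 0.897). Itgam was at 0.834 times it, a log2 fold change of -0.26 with SE 0.251 and a 95% interval of -0.83 to 0.31 (edgeR adjusted p = 0.918).

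In Vulnerable against Saline rats none of the 3 genes had an unadjusted p under 0.05 in edgeR, against 5.03% of all genes (807 of 16029). At an adjusted p under 0.05 edgeR called 0% of all genes here and DESeq2 0.187%, none of the 3 among them, so a lack of calls says nothing particular about these genes. Groups overlapped for all 3, and did not overlap in either direction for 11.9% of all genes. Of all genes, 11.4%, 6.92% and 21.8% had a larger absolute log2 fold change than Aif1, Cx3cr1 and Itgam, and 11.2%, 11% and 35.2% had a smaller p. These genes also varied more within groups than the median gene, as given above. The median log2 fold change of the 3 was -0.41 beside 0 over all genes, which is 0.0004 unrounded. The fold changes depended on single rats. Without Saline rat 1 the log2 fold change was -0.19 for Aif1 and -0.24 for Cx3cr1, and for Itgam it ran from -0.48 without Vulnerable rat 1 to -0.08 without Saline rat 2. Without Saline rat 3 it was -0.79 for Cx3cr1, with an unadjusted p of 0.00349 and an edgeR adjusted p of 0.284. All 3 comparisons share groups with each other, so their values are given side by side and do not add up to separate evidence.

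Across the 9 rats the 3 genes varied together, so that a rat high in one tended to be high in the others. Vulnerable rats 2 and 3 and Saline rat 3 held the lowest 3 places for all 3 genes, and Non Vulnerable rat 1 was first or second for each. On log2 CPM, Pearson's r of Aif1 and Cx3cr1 was 0.895 (exact permutation p = 0.00144, adjusted over 3 pairs 0.00431) and Spearman's rho 0.867 (exact permutation p = 0.00451, adjusted 0.0135; n = 9). For Cx3cr1 and Itgam r was 0.832 (exact permutation p = 0.00704, adjusted 0.0102) and rho 0.75 (exact permutation p = 0.0255, adjusted 0.0382). For Aif1 and Itgam r was 0.795 (exact permutation p = 0.0102, adjusted 0.0102) and rho 0.683 (exact permutation p = 0.0503, adjusted 0.0503). All tests were two-sided.

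The relation of Aif1 with Cx3cr1 kept its size without the 2 rats farthest from the median of Aif1, Non Vulnerable rat 1 and Vulnerable rat 2, with r = 0.889 (exact permutation p = 0.0115, n = 7). That of Cx3cr1 with Itgam had r = 0.898 (exact permutation p = 0.00734, n = 7) without Saline rats 1 and 3, the 2 farthest from the median of Cx3cr1. With only 1 rat left out, its r ran from 0.763 without Saline rat 3 to 0.913 without Saline rat 1. Aif1 and Itgam gave r = 0.628 (exact permutation p = 0.138, n = 7) without Non Vulnerable rat 1 and Vulnerable rat 2, so their relation rested in part on those rats. After the mean of each group was subtracted, r was 0.865 for Aif1 and Cx3cr1, 0.786 for Cx3cr1 and Itgam and 0.690 for Aif1 and Itgam, given without a test. The joint variation was thus present among rats of the same group. The points of a rat share its library and its scaling factor.

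**Figure D4:**
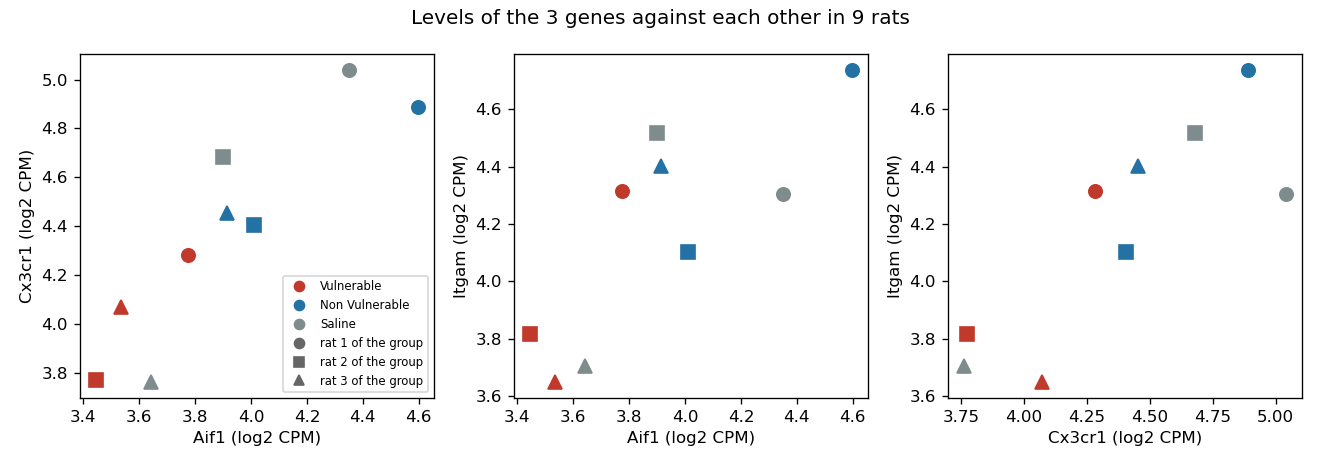
Level of each gene against another (log2 CPM on both axes) in 9 rats, coloured by group and shaped by the number of the rat in its group. The points run from Vulnerable rats 2 and 3 and Saline rat 3 at the lower left to Non Vulnerable rat 1 and Saline rat 1 at the upper right, except that Saline rat 1 is lower for Itgam.

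Ratios of raw counts within a rat do not depend on scaling between rats. The ratio of Aif1 to Cx3cr1 counts was 0.702, 0.795 and 0.689 in Vulnerable rats, 0.816, 0.761 and 0.688 in Non Vulnerable rats and 0.62, 0.581 and 0.92 in Saline rats. Its means of 0.729 ± 0.0581, 0.755 ± 0.0644 and 0.707 ± 0.186 (SD, n = 3) differed by less than the spread within groups. The ratio of Aif1 to Itgam counts averaged 0.795 ± 0.121 in Vulnerable, 0.852 ± 0.123 in Non Vulnerable and 0.88 ± 0.202 in Saline rats (SD, n = 3). That of Cx3cr1 to Itgam averaged 1.1 ± 0.213, 1.13 ± 0.1 and 1.28 ± 0.34 (SD, n = 3), the highest being 1.67 in Saline rat 1. In all 3 ratios the groups overlapped in every comparison.

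Other genes shared the pattern of the 3. Of 13724 other genes with a mean of at least 1 CPM, 504 (3.67%) had a mean correlation of at least 0.8 with the 3 genes over the 9 rats and 40 (0.291%) one of at least 0.9, while the median over these genes was 0.0369. The closest was ENSRNOG00000018494, with r of 0.957, 0.924 and 0.916 with Aif1, Cx3cr1 and Itgam and a level of 29.3 to 53.5 CPM. Its log2 fold change in Vulnerable against Non Vulnerable rats was -0.44 with SE 0.179 (edgeR adjusted p = 0.0889). Next came ENSRNOG00000017874, with r of 0.961, 0.972 and 0.856 and a level of 7.29 to 13.5 CPM. Its log2 fold change in the same comparison was -0.43 with SE 0.211 (edgeR adjusted p = 0.144). Neither ID could be paired with a symbol, and these correlations are a description of 9 rats, given without a test. Both genes were picked by their correlation over these same rats. Their fold changes therefore tend to follow those of the 3 genes and are not separate evidence of a difference.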

How the data were processed

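Each of 36 technical libraries has a table, deposited by the authors, of raw counts (whole numbers) for every Ensembl gene ID. Libraries were polyA-selected and strand-specific, per the labels' protocols. Tools named are bcl2fastq 2.17.1.14, STAR and HTSeq 0.5.3, per the submitters' processing notes. Not given in the sources used here were the build, the annotation and whether counting used strand. How reads of overlapping or antisense genes were assigned is thus unknown.

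Counts of the 4 technical libraries were summed per rat (n = 3 a group). In edgeR 4.0.16 (R 4.3.3), genes passing filterByExpr were scaled by TMM and fitted with a robust quasi-likelihood model over all 9 rats, 1 coefficient a group (6 residual degrees of freedom), which assumes 1 spread for all groups. Benjamini-Hochberg adjustment ran over all genes, and adjusted p under 0.05 was called. Standard errors came from the F statistic; a prior count of 2 was added for log2 CPM. The procedure was also run on simulated data. The planted changes there were larger than any reported for the 3 genes, so finding changes of this size was not tested. Alternatives were other scalings, no filter, DESeq2 1.42.0, limma voom (limma 3.58.1), only the compared groups, the rat number as a block, single technical libraries, and leaving out each rat. For the correlations, leaving out each rat singly was added after seeing the data.

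The 3 genes, the lists and the tests were chosen with earlier results of these data known, and the promoter motifs with the sequences in view. Genes most alike were ranked by the mean of their 3 correlations. The rule asked for the 5 highest, or at most 2 where IDs have no symbol. In all, 10 lists of 111 marker symbols could not be used, because 0 of 31546 IDs could be paired with a symbol.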

Additional observations from a re-analysis of the deposited data

How the results depend on the processing

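For the 9 log2 fold changes, 189 values under 21 alternatives each were computed. Of these, 177 kept their direction and their side of the threshold, 3 crossed it and 9 turned sign. The 3 that crossed it were those of Aif1 in Vulnerable against Non Vulnerable rats: -0.594 in DESeq2, -0.588 with the rat number as a replicate block and -0.689 with technical library c alone, with adjusted p of 0.0381, 0.0109 and 0.0385. In those settings 37.8%, 32.2% and 29% of all genes tested were called too. Over all 21 alternatives the adjusted p of Aif1 ran from 0.0109 to 0.187. Over all genes no pairing of the rats by their numbers was seen. Deviations from group means correlated at -0.137 to 0.19 in same-numbered pairs, above 0.1 in 2 of 9. In pairs of unlike number these correlations ran from -0.239 to 0.191. Only 2 of 9 rats correlated best with a rat of their own number. For the 3 genes themselves, rat 1 was the highest of its group, except for Itgam in Saline rats. For Aif1 it lay 0.189, 0.422 and 0.387 log2 units above the Vulnerable, Non Vulnerable and Saline means. Pairing by number in these genes alone was not tested. The block changed no other call of the 3 genes.

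Turned signs belonged to Non Vulnerable against Saline rats, where none was called. For Cx3cr1 the value was -0.0956 with total counts as library size, -0.0348 without the 10 most counted genes in the scaling, and -0.0264 with technical library a or b alone. It ran from -0.291 to 0.261 with a rat left out, and that of Aif1 from -0.0482 to 0.386. Total counts moved the median of all genes by 0.124 in Vulnerable against Non Vulnerable and by -0.107 in Non Vulnerable against Saline rats. The cause of these changes was not tested. The correlation of Aif1 and Itgam ran from 0.673 without Non Vulnerable rat 1 (exact permutation p = 0.0661) to 0.848 without Saline rat 2.

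The background counts moved too. The 5050 genes called in Vulnerable against Non Vulnerable rats became 2798 to 5841 with a rat left out. The 2351 of Non Vulnerable against Saline rats became 3747 in DESeq2, 1164 with only those groups in the fit, and 251 to 3615 with a rat left out. The 0 of Vulnerable against Saline rats, with 807 genes at an unadjusted p under 0.05, became 30 in DESeq2, and 1 with total counts or technical library b alone. With 1 technical library per rat, and so less depth and fewer genes tested, 4052 to 4145 genes were called in Vulnerable against Non Vulnerable rats and 1585 to 1644 in Non Vulnerable against Saline rats.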
